A study of Mus musculus with 2 samples.

Results

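The cytosolic and mitochondrial chaperones are the proteins that fold, refold and disaggregate other proteins outside the endoplasmic reticulum (ER). They were taken here as the heat shock protein genes (Hspa, Hspb, Hspd, Hspe, Hsph and Hsp90 symbols), the J-domain protein genes (Dnaja, Dnajb and Dnajc) and the genes of the cytosolic chaperonin (Cct). The ER chaperones Hspa5, Hspa13, Hsp90b1, Dnajb9, Dnajb11, Dnajc1, Dnajc3 and Dnajc10 were left out, as were Hspg2 and Hspbap1. The rule gave 72 of the 18193 genes with a symbol of their own on the array. It uses symbols only and no measured value.

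The cells studied were T helper 2 (Th2) cells, CD4 T cells steered to make interleukin-4 and related cytokines. The series held 2 arrays, 1 of cells from Ecm1 knockout mice and 1 of cells from wild-type mice, with no replicate of either. Ecm1 encodes a secreted matrix glycoprotein, and the comparison asks how its loss bears on the messenger RNA levels of Th2 cells. The mice of both groups were C57BL/6, described as female and 6 weeks old. CD4 cells were captured from their spleens with an antibody and magnetic beads and then cultured for 4 days on plate-bound anti-CD3 (3 µg/ml). The medium held anti-CD28 at 2 µg/ml, antibodies against IL-12 and IFN-γ at 10 µg/ml each, and IL-4 at 10 ng/ml, a unit that the label gives in garbled form. The way Ecm1 was disrupted and the number of animals per array were not given in the sources used here.

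Both arrays were set against their labels first. Ecm1 had a signal of 29114.7 in wild type and 19.3 in the knockout. The floor, taken as the median signal of an array, was 65.5 for the knockout and 69.2 for wild type. The Y-linked Eif2s3y had signals of 2214.4 (knockout) and 25.0 (wild type), against a label of female mice, and Xist, expressed from an inactive X chromosome, had 8715.3 and 19739.9. The 9 T cell markers measured were all lower on the knockout array (summed signal 57884.9 against 106723), while the other lists had higher sums. These were 8 plasma cell markers (111080 against 47897.4, 7 of 7 measured on both arrays above 0), 7 B cell markers (34010.6 against 16740.9, 6 of 6), 8 macrophage markers (8468.6 against 1847.8, 6 of 6) and 11 cell division genes (91179.6 against 56725.3, 11 of 11). The sample descriptions name liver, yet all 7 hepatocyte markers, Alb among them, were below the floor on both arrays. The part of these shifts in the chaperone values below was not tested, and fewer cells of a type cannot be told apart from less RNA per cell.

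Chaperones bind unfolded or partly folded proteins and release them through cycles of ATP hydrolysis. HSP70 proteins work with J-domain proteins, which deliver clients and trigger ATP hydrolysis, and with nucleotide exchange factors such as HSP110, which let the client go. HSP90 finishes the folding of kinases and receptors, the CCT ring folds actin and tubulin, and HSP60 with HSP10 forms a folding chamber in mitochondria. Many of these genes are induced by the heat shock factor HSF1, and T cells are known to raise their cytosolic chaperones as they grow after activation.

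The chaperone genes lay slightly higher on the knockout array as a set, by much less than 2-fold, and almost none was clearly lower. Of the 72 genes, 52 reached the floor on each array, 4 on 1 array only and 16 on neither. Values are log2 differences, knockout minus wild type, of a gene's brightest probe set (highest average of the 2 log2 signals), centred on the median of all probe sets measured on both arrays. Among the 52, 40 were above 0 (76.9%, against 53.1% of all 10144 genes measured on both arrays), and their median was 0.24 against 0.04 for all genes. Only 3 were at least 2-fold higher, Hspa2, Hsph1 and Hspb6 (5.77%, against a background of 7.15%), and 0 were at least 2-fold lower (background 4.45%). The share past 2-fold higher is thus near that of all genes. At 1.5-fold the counts were 10 higher (19.2%, background 18.3%) and 2 lower (3.85%, background 13.6%), the latter being Dnaja4 and Hspb11.

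The only internal measure of error used is how far the 2 brightest measured probe sets of a gene disagree. Its technical SD, the SD of their difference divided by the square root of 2, was 0.36 on the log2 scale over 4657 genes. It was 0.32 over the 32 chaperone genes with several measured probe sets. The technical SD leaves out dimmer probe sets and animal, culture and array error, so no difference here carries a test. By that measure 22 of the 52 genes lay more than 1 technical SD above 0 (42.3%, background 28.8%) and 3 lay more than 1 below (5.77%, background 23.5%). More than 2 technical SD above 0 lay 8 genes (15.4%, background 13.7%), and more than 2 below lay 1, Dnaja4 (1.92%, background 9.52%).

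**Figure D1:**
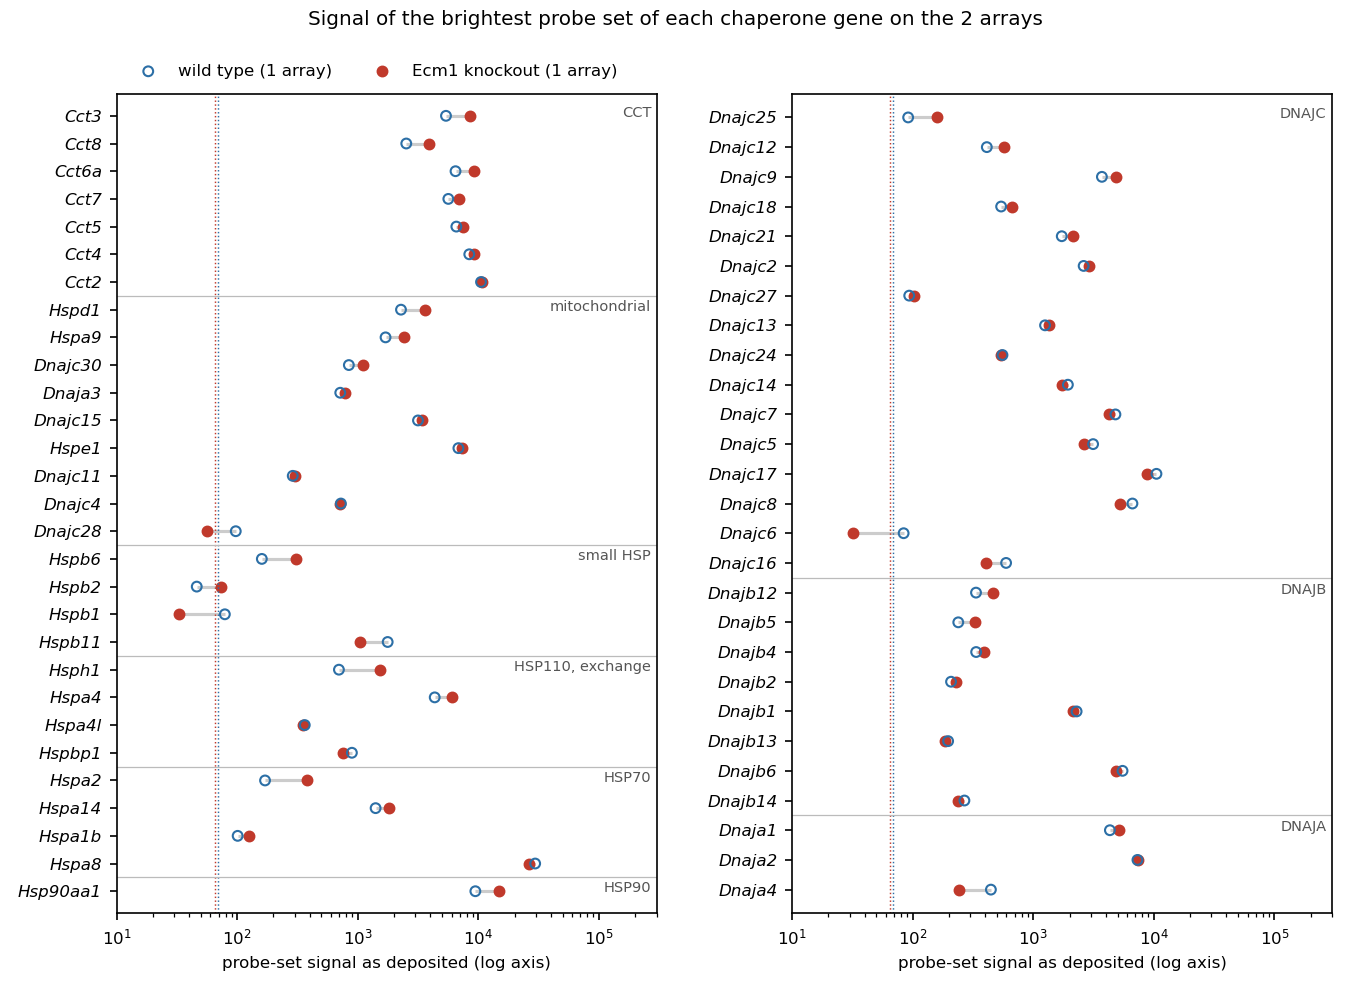
Deposited probe-set signal of each chaperone gene that reached the floor on at least 1 array, on a log axis, with the Ecm1 knockout array as filled red points, the wild-type array as open blue circles and each array's floor as a dotted line. The CCT genes and the measured mitochondrial chaperones at or above both floors lie slightly to the right in the knockout or on top of wild type, and most other pairs of points nearly touch.

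HSP90 was represented by Hsp90aa1, the stress-inducible cytosolic form, and Hsp90ab1 was not analysed here. Hsp90aa1 read 14725.4 (knockout) against 9434.6 (wild type), a difference of 0.75 (1.68-fold). The other measured probe sets of the gene gave 0.54 and 0.70, so these 3 stood on the same side by more than the technical SD. With all 5 of its probe sets averaged, those below the floor included, the value was -0.10.

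In the HSP70 class, the constitutive form hardly differed and 1 gene of low signal stood out. Hspa8, the constitutive cytosolic HSP70 that also strips clathrin coats, read 26433.9 and 29555.3 in knockout and wild type (-0.06), and its 4 probe sets ran from -0.15 to 0.30. Hspa2, a form best known from the testis, read 380.4 against 170.2 (1.26, 2.40-fold) on its only probe set. With a higher floor, the 70th percentile, its wild-type signal fell below the floor and left a bound of 0.38. Hspa14, a ribosome-associated HSP70, read 1813.5 against 1405.1 (0.47), while its other measured probe set was at 1.41. The class median over 4 measured genes was 0.44.

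Of the classic heat-inducible members, the HSP70 and HSP27 genes were near the floor. Hspa1b, a main stress-induced HSP70, read 124.7 (knockout) and 100.9 (wild type), a difference of 0.41. Another of its probe sets read 116.6 and 56.1 (below the floor in wild type only), and the remaining one 60.6 and 58.7 (below both floors). Hspa1a, a near-identical copy of Hspa1b, read 33.9 and 24.6, below the floor on both arrays, and probe sets of this pair can share signal. Hspb1, the small heat shock protein HSP27, read 32.7 and 79.0, so only a bound of -0.17 can be given. Dnajb1, the HSF1-induced J-domain partner of HSP70, read 2151.5 and 2288.6 (0.01), with its other probe set at 0.16. Of these 4 genes, the pair with a measured difference, Hspa1b and Dnajb1, lay within 2-fold by brightest probe set. They do not stand for all inducible members. By brightest probe set Hsp90aa1 was at 0.75 and Hsph1, the inducible HSP110, at 1.23.

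HSP110 proteins and other nucleotide exchange factors were split. Hsph1, the inducible HSP110, read 1528.7 against 697.5 (1.23, 2.35-fold), and its other probe set read 535.3 against 313.0 (0.88, under 2-fold). Hspa4, the constitutive relative, read 6025.5 against 4342.8 (0.58), but its dimmest measured probe set went the other way at -1.19, with 0.16 and 0.26 in the remaining ones. Hspa4l was at 0.05, with probe sets down to -0.68, and the exchange factor Hspbp1 was at -0.14. The median over the 4 genes was 0.31, and it was -0.09 when the probe sets of a gene were averaged, so the class has no settled direction.

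Of the small heat shock proteins, which hold unfolded proteins in solution without ATP, 4 of 8 were below the floor on both arrays. Hspb6 read 306.8 against 160.1 (1.04, 2.06-fold) on its only probe set, and was under 2-fold without centring (0.94). Hspb11, which despite its symbol is a subunit of the ciliary transport machinery, read 1036.9 against 1768.8 (-0.67). Hspb2 reached the floor only on the knockout array, with 73.5 against 46.2, a bound of 0.19. With Hspb11 set aside, only Hspb6 had a measured difference, so no direction can be given for the class.

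The mitochondrial chaperones leaned one way. All 8 genes measured on both arrays were above 0 (against 53.1% of all genes). They lay between 0.08 and 0.75, with a median of 0.22 and none past 2-fold. Only Hspd1, Hspa9 and Dnajc30 lay above the technical SD of 0.36. Without centring, which lowers every value by 0.10, Dnajc4 was below 0, and with the probe sets of a gene averaged Dnaja3 was (-0.66). Hspd1, the mitochondrial HSP60, read 3579.5 against 2281.1 (0.75, 1.69-fold) on its only probe set. Hspa9, the mitochondrial HSP70 that pulls imported proteins across the inner membrane, read 2423.9 against 1698.8 (0.62), with its other measured probe sets at 0.75 and 0.46. Dnajc30 was at 0.49, Dnaja3, the J-domain partner of Hspa9, at 0.23 and Dnajc15, a J protein of the import motor, at 0.22. Dnajc28 reached the floor only in wild type, a bound of -0.47.

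Hspe1, the HSP10 lid of the HSP60 chamber, did not stand where Hspd1 did. It read 7263.7 against 6824.9 (0.19, 1.14-fold), and its other probe set gave 0.16. The technical SD is that of 1 value and not of a gap between 2 genes, and the gap between Hspd1 and Hspe1 was not tested. The genes lie head to head and share a promoter, so the sequence between their starts is shown, from RefSeq (GRCm38.p6, chr1:55087933-55088147, plus strand, 215 bases). It lies between 1 of the listed starts of Hspd1 (base 55087932, read leftwards) and that of Hspe1 (base 55088148, read rightwards). RefSeq lists a further Hspd1 start on the other side of the Hspe1 start. The capitals mark an 18-base run of 4 alternating GAA and TTC units, the pattern of a heat shock element, 71 bases before the Hspe1 start.
Hspd1-Hspe1: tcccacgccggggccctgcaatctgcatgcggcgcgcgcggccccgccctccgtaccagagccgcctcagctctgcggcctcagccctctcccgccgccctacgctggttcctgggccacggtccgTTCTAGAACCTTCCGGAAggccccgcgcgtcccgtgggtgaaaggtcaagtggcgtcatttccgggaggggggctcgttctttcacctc

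Promoter windows (250 bases before to 50 after each start, RefSeq, GRCm38.p6) were found for 59 of the 72 genes. The heat shock element searched was GAANNTTCNNGAA on either strand, that is 3 units. It was in the windows of 4 of the 59 genes (6.78%), Hspd1, Hspe1, Hsph1 and Dnajb6, against 0.662% of the 27025 genes in the table. The Hspd1 and Hspe1 matches are the same bases, so the 4 genes do not hold 4 separate elements. The shorter GAANNTTC, which every 3-unit match holds, was in 16 of the 59 (27.1%, against 9.04% of all), and TTCNNGAA, likewise held by each 3-unit match, in 7 (11.9%, against 9.60%). A match is a description of the letters in the window and not a site. The 4 genes are set side by side because their values differ widely, with Hsph1 at 1.23, Hspd1 at 0.75, Hspe1 at 0.19 and Dnajb6 at -0.08. Each stretch is read on the strand of its gene, and capitals mark the element. The first lies at chr1:55088050-55088085 (minus strand), the second at the same place (plus strand) and the third at chr5:29735843-29735873 (plus strand). The Hsph1 match, at chr5:149636288-149636300 (minus strand), lies just after the start and is shown without flanks.
Hspd1: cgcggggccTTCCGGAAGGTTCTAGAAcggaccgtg
Hspe1: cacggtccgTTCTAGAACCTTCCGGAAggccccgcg
Dnajb6: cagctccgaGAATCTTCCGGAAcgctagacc
Hsph1: TTCTGGAAAGTTC

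Hspa1b and Hspb1, known for heat induction and read near the floor here, had only the shorter GAANNTTC in their windows. They are shown for contrast with the 3-unit genes, from chr17:34959326-34959351 (minus strand) and chr5:135887793-135887818 (plus strand).
Hspa1b: aaactgctgGAAGATTCctggcccca
Hspb1: tcaacaagaGAAGTTTCcagatgggg

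Over the 42 genes with a window and a measured difference, the 4 with a 3-unit element had a median of 0.47 and ranged from -0.08 to 1.23. The 38 without one had a median of 0.23 and ranged from -0.78 to 1.26. The ranges overlapped, and the highest value (Hspa2) and the lowest (Dnaja4) were of genes without the element. The 10 measured genes with GAANNTTC had a median of 0.30, and the 32 without it 0.22.

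The genes of the cytosolic chaperonin CCT stood on 1 side of 0. All 7 measured subunits were above 0 (against 53.1% of all genes), none of them past 2-fold. The median of 0.39 lay between a lowest value of 0.12 (Cct2) and a highest of 0.77 (Cct3). Cct2, Cct4 and Cct5 lay within the technical SD of 0.36. Cct3 read 8552.4 against 5385.0 (1.71-fold), Cct8 3897.3 against 2522.9 (0.73) and Cct6a 9220.9 against 6460.6 (0.62). The 5 measured probe sets of Cct3 ran from -0.06 to 0.77. Cct7 was at 0.39, Cct5 at 0.30 and Cct4, with 9203.9 against 8400.6, at 0.23. Cct2 read 10615.1 and 10511.7, and its 3 probe sets ran from -0.06 to 0.22. The ring holds these subunits in equal number, while by brightest probe set their transcripts differed from wild type by 1.08-fold to 1.71-fold. With the probe sets of a gene averaged, Cct3 was at 0.42 and Cct4 at 0.71, so the order of the subunits depended on the probe sets. Tcp1, which encodes the remaining subunit of the ring and falls outside the symbol rule, read 7931.0 against 6481.3 (0.39), at the median of the others. After quantile normalization the CCT median was 0.22, and Cct2 was the member whose sign depended on the setting. The testis-type subunit Cct6b (2.8 and 43.7) and Cct8l1 (22.9 and 26.3) were below the floor on both arrays.

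J-domain proteins of the DNAJA and DNAJB types, which pass unfolded clients to HSP70, mostly lay close to 0. Dnaja1 read 5176.6 against 4321.2 (0.36) and Dnaja2 7347.4 against 7312.5 (0.11). Dnaja4 read 241.2 against 445.6 (-0.78, 1.72-fold lower), whereas its other probe set measured on both arrays was at 0.26. Of 8 measured DNAJB genes 6 were above 0, and the median was 0.12. Dnajb6, which suppresses aggregation, read 4834.2 and 5500.7 (-0.08), with probe sets from -1.15 to 0.25. Dnajb12, an ER-membrane J protein facing the cytosol, was highest at 0.56, with its other probe set at -0.19. Dnajb14, its close relative, was lowest at -0.08.

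The DNAJC genes, a mixed class of J proteins with special tasks, spread to both sides. Of 15 measured genes 9 were above 0 and 6 below, with a median of 0.21. Dnajc9, a histone chaperone, read 4878.2 against 3709.3 (0.50), and Dnajc21, a factor of ribosome assembly, 2118.2 against 1723.7 (0.40), with its other measured probe sets at 0.85 and 0.05. Dnajc2, a J protein of the ribosome exit site, read 2907.3 against 2617.9 (0.25), with its other measured probe sets at 0.65 and 1.29. Dnajc25 was highest at 0.90, but with signals of 159.3 and 91.8 near the floor.

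The 6 lower members of the class lay between -0.46 and -0.06. Dnajc16 read 403.3 against 595.5 (-0.46, with -0.68 in its other probe set), and Dnajc8, which associates with the spliceosome, 5238.6 against 6644.0 (-0.24). Dnajc17 read 8750.2 against 10509.2 (-0.16), while its other measured probe set read 135.9 and 125.6 (0.22). Dnajc7 was at -0.07 and Dnajc5, the cysteine string protein of secretory vesicles, at -0.14, though 1 of its 5 probe sets stood at 1.30. Dnajc18 (0.41, and -0.64 in its other probe set measured on both arrays) and Hspa4 were the members whose probe sets disagreed in sign by more than the technical SD on each side. Dnajc6, a clathrin uncoating factor, reached the floor only in wild type, a bound of -0.26.

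**Figure D2:**
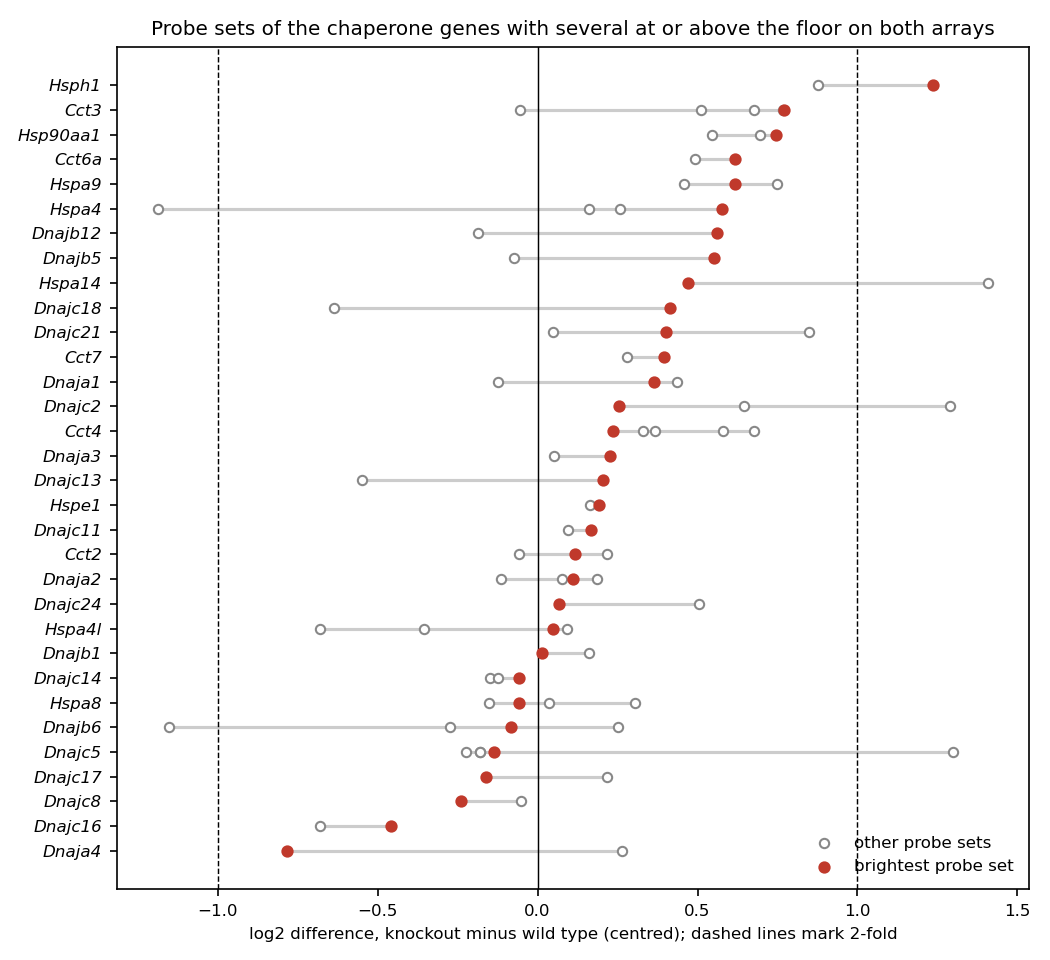
Log2 difference (knockout minus wild type, centred) of every probe set that reached the floor on each array, for the 32 chaperone genes with several such probe sets, with the brightest in red and the others open. The probe sets of Hsph1, Hsp90aa1, Cct6a and Hspa9 all lie right of 0, whereas those of Hspa4, Dnajc18 and Dnaja4 lie on both sides.

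Genes that work with the chaperones also leaned slightly higher in the knockout. Of 43 further genes of the chaperone network measured on both arrays 35 were above 0 (against 53.1% of all genes), with a median of 0.28. Sec63, a J protein of the ER translocon, was the only one past 2-fold (2800.0 against 1229.5, 1.29), and none was 2-fold lower. The 5 probe sets of Sec63 ran from -0.31 to 1.29, and it was not past 2-fold with them averaged or without _x_at and _s_at probe sets. Grpel1, the nucleotide exchange factor of mitochondrial HSP70, read 3269.3 against 1826.1 (0.94), the HSP90 co-chaperone Fkbp4 875.7 against 532.7 (0.82), the prefoldin subunit Pfdn4 2018.0 against 1278.7 (0.76) and the mitochondrial disaggregase Clpb 382.2 against 246.8 (0.73). Hscb, a J protein of iron-sulphur cluster assembly, was lower at -0.77 (973.8 against 1778.7). By role, the medians were 0.24 for 10 HSP90 co-chaperones, 0.14 for 11 HSP70 partners, 0.39 for 9 CCT partners and 0.29 for 11 mitochondrial partners. Among the heat shock factors Hsf2 reached the floor only in the knockout (69.2 against 57.5), and Hsf4 was at -0.33 near the floor. Hsf1 was not analysed here.

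The ER chaperones set aside by the rule stood well above the cytosolic and mitochondrial ones. All 8 had a measured difference, 6 of them at least 2-fold higher (against 7.15% of all genes), and their median was 1.51 against 0.24. Hspa13 (2.32), Dnajc3 (1.72), Dnajb11 (1.68), Dnajb9 (1.62), Hspa5 (1.39) and Hsp90b1 (1.35) each exceeded the highest cytosolic or mitochondrial member, Hspa2 at 1.26. Dnajc10 (0.53) and Dnajc1 (0.07) lay among the latter. This split holds for the brightest probe sets. Measured probe sets ran from 0.61 to 1.63 for Hspa5, 0.42 to 1.72 for Dnajc3 and 0.53 to 1.41 for Dnajc10. Those of Dnajc1 ran from -0.73 to 0.33, of Hspa13 from 2.32 to 2.57 and of Hsp90b1 from 1.35 to 2.05. With the probe sets of a gene averaged, 7 of the 8 ER genes were at least 2-fold higher. Among paralogs, Hsp90b1 stood at 1.35 beside Hsp90aa1 at 0.75, and Hspa5 stood at 1.39 beside Hspa8 at -0.06 and Hspa9 at 0.62. With 1 array per group the difference between the sets carries no test. The plasma cell, B cell, macrophage and cell division lists were also higher on the knockout array, and the T cell markers were lower. The part of any of these shifts in the difference between the sets was not tested.

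J proteins that sit in ER or other secretory-pathway membranes but remain on the cytosolic list did not share that height. Dnajb12, Dnajb14, Dnajc14, Dnajc16, Dnajc18 and Dnajc25, grouped after their values were seen, ran from -0.46 to 0.90, 3 above and 3 below 0. The ER stress element searched, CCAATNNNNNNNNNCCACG on either strand, was in none of the 59 promoter windows of the cytosolic and mitochondrial genes. It was in 3 of 7 windows of the ER genes and in 0.137% of all genes. Those of Hspa5 (chr2:34772019-34772049, plus strand), Hsp90b1 (chr10:86705632-86705662, minus strand) and Dnajc3 (chr14:118937821-118937851, plus strand) are shown to set beside the heat shock elements above, with the element in capitals. TGATGCAA, an amino acid response element, was in 0 windows of either set and in 1.03% of all genes.
Hspa5: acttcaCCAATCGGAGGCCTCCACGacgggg
Hsp90b1: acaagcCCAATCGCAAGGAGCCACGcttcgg
Dnajc3: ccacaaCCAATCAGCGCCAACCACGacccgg

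**Figure D3:**
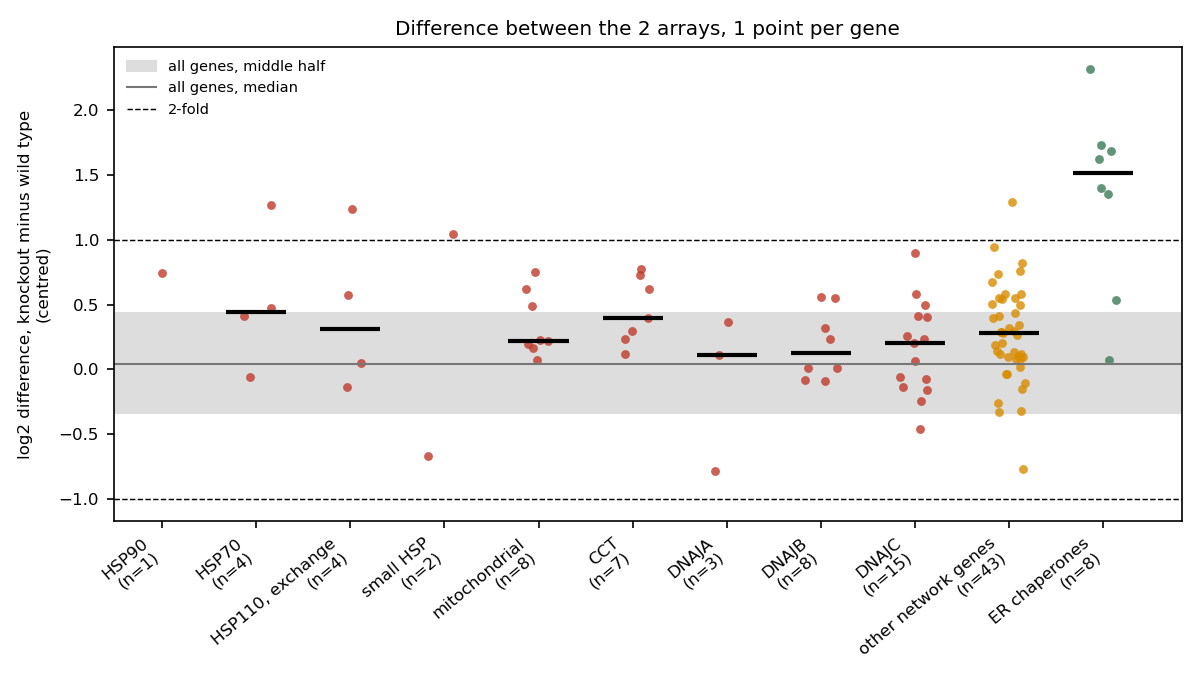
Log2 difference (knockout minus wild type, centred) of each gene measured on both arrays, by class, with black bars for the medians of classes of 3 or more genes, the grey band and line for all genes and dashed lines at 2-fold. Cytosolic and mitochondrial classes (red) and the other network genes (orange) sit mostly between 0 and 1, and 6 of the 8 ER chaperones (green) lie above 2-fold.

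**Figure D4:**
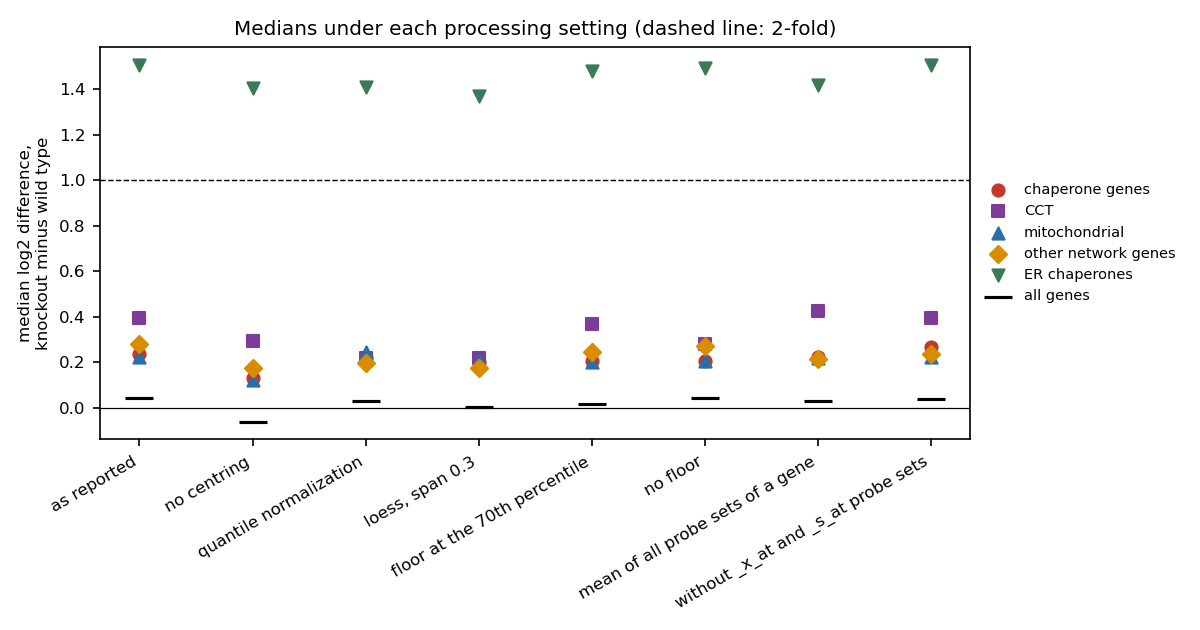
Median log2 difference (knockout minus wild type) of the chaperone genes, of CCT, of the mitochondrial chaperones, of the other network genes, of the ER chaperones and of all genes under each processing setting. The ER median stays above 2-fold (dashed line), and the others lie above that of all genes and well under 2-fold in each of the 8 settings plotted.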

How the data were processed

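The deposited file holds linear signal intensities of 45101 probe sets of an Affymetrix mouse array, made from 3 µg of total RNA per the labels' protocols. The summarisation method was not given in the sources used here. Each array had a trimmed mean (central 96% of probe sets) of 500.004, so the arrays share a scale but not a distribution (75th percentile 423.4 in the knockout, 456.2 in wild type).

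Only probe sets with 1 symbol in the platform annotation named genes (34945), and 3 probe sets that join a chaperone symbol to another were left out. The difference of log2 signals was centred on its median, -0.10, over 20834 probe sets that reached the floor (the array's median) on each array. Genes under the floor on 1 array have a bound, the other signal against the floor, and those under it on both have no value. Named genes were the members past 2-fold, the 3 brightest and the extremes of each class, members with opposed probe sets, Tcp1, the 6 network genes farthest from 0 and the ER chaperones, and others, such as the heat-inducible genes, were added after their values were seen. Members and lists were chosen with earlier results of these data known. With 1 array per group no test was run, and the number of arrays limits the precision. The scripts were tested on simulated data. Python 3.11.15, numpy 2.4.6 and pandas 2.3.3 were used.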

Additional observations from a re-analysis of the deposited data

How the results depend on the processing

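No paired analysis was possible because no group had replicates. The cause of the changes below was not tested. The median of all genes was 0.04 as reported, -0.06 without centring and 0.00 after loess. Without centring, 35 of the 52 chaperone genes were above 0 (45.7% of all genes), the chaperone median was 0.13, the network median 0.17 and Hspb6 just under 2-fold (0.94). After quantile normalization the CCT median was 0.22 and the network median 0.19, and after loess 0.22 and 0.17. With the floor at the 70th percentile 1 chaperone gene, Hsph1, was 2-fold higher, against 5.65% of all genes. Hspa2 and Hspb6 then had bounds of 0.38 and 0.07, and the medians of HSP70 (0.18, 2 genes) and DNAJC (0.040) were lower. With no floor 5 of the 72 chaperone genes were 2-fold higher and 6 lower, as signals near background entered. Among all genes 15.3% were higher and 12.4% lower in that setting. At 1.5-fold, 10 chaperone genes were higher and 2 lower, and 6 of 43 network genes higher and 1 lower. The shares of all genes were 18.3% higher and 13.6% lower. With probe sets averaged, 0 network genes were 2-fold higher and 1 lower (6.91% and 4.41% of all genes), and the HSP110 median turned to -0.093. Without _x_at and _s_at probe sets 0 network genes were 2-fold higher (7.29% of all genes). With the dimmest measured probe set, chosen after seeing the data, the HSP70 median was 0.84, DNAJC 0.049 and HSP110 -0.022. With probe sets averaged, Hsp90aa1 (-0.10), Hspa4 (-0.05), Dnaja3 (-0.66), Dnajb4 (-0.15) and Dnajc13 (-0.17) were below 0 and Dnajc17 (0.999) above. Of the 46 genes with a value in the reported setting and all 7 alternatives, 23 were above 0 and 8 below 0 throughout and 15 took both signs. The other 6 were below the higher floor on both arrays. The ER median ran from 1.37 to 1.51.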

Other observations

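The immunophilins, prolyl isomerases of the FKBP and cyclophilin families that assist folding, were also looked at by compartment. Of 5 ER immunophilins measured on both arrays, all were above 0 (against 53.1% of all genes), with a median of 0.65. Fkbp11 (2342.7 against 290.5, 3.11) and Fkbp2 (5758.9 against 2205.0, 1.49) were past 2-fold. Of 10 others, 7 were above 0, with a median of 0.09 and none past 2-fold, Fkbp4 being highest at 0.82 and the mitochondrial Ppif at 0.53. The ER members Ppib (0.65), Fkbp7 (0.39) and Ppic (0.36) lay below Fkbp4, so the groups overlapped. The grouping was chosen after values were seen and carries no test.

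Tubulin and actin, the main clients of CCT, differed between themselves, with 3 of 11 measured genes past 2-fold higher (against 7.15% of all genes). Tubb2b read 1090.1 against 242.5 (2.27), Tubb6 1324.8 against 470.0 (1.60) and Tubb2a 653.3 against 303.6 (1.21), while Tuba1a was at 0.46, Tubb5 at 0.34, Tuba4a at 0.29 and Tubb4a at 0.09. Tubb4b was at 0.96, with probe sets down to -0.30, and those of Tubb5 reached -0.04. Actb (0.03) and Actg1 (-0.15) were near 0. Some tubulin genes of the same family are near-identical, so their probe sets can share signal.

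Of the genes that the symbol rule set aside for not being chaperones of this kind, the matrix proteoglycan Hspg2 was at -0.26 and Hspbap1 at 0.63, with another probe set at -0.54.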
